A study of Saccharomyces cerevisiae with 9 samples.

Results

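The outermost genes of the yeast chromosomes were examined arm by arm in RNA sequencing libraries of Saccharomyces cerevisiae strain W303. Locus tags of budding yeast number the genes of each chromosome arm outwards from the centromere, so the 3 highest numbers on an arm mark the genes of the count table nearest to the telomere. From 32 arms this gave 96 genes, and 12 of them were left out by name (SEO1, PHO89, ADH7, AAD6, ADH4, ARN2, FRE2, MMP1, SNO2, SNZ2, AAD15 and BDS1). The remaining 84 telomere-proximal genes, of 5205 genes in the table, covered all 32 arms, with 3 genes on 22 arms, 2 on 8 arms and 1 on 2 arms (XIVL and XVL). The rule used only locus tags and names, but it was set with earlier results of these data known.

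Each of 3 groups had 3 libraries, which the sample titles call biological replicates. WT-red libraries came from red colonies of wild-type W303, K504E-red libraries from red colonies of the cdc13-K504E mutant, and K504E-white libraries from white colonies of that mutant. All cultures had stood in YPD, a rich medium, for 15 days of stationary phase without dilution, and the libraries were made from poly(A) RNA. No white wild-type group was analysed here, so in K504E-white against WT-red the mutation and the colony colour cannot be told apart. The titles do not say whether replicates were separate cultures or isolates of one mutant strain, and p-values measure the spread between these samples.

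Telomeres end every chromosome, and the essential protein Cdc13 binds their single-stranded ends and guides telomerase and end protection. Next to them lie the subtelomeres, which hold gene families for sugar use, transport, cell wall and stress proteins, and which differ in gene content between yeast strains. Genes close to a telomere can be silenced by the Sir2, Sir3 and Sir4 proteins that Rap1 and the Ku proteins recruit, a phenomenon called telomere position effect.

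Total counts ranged from 27388755 to 34634199 per library. CDC13 ranged from 20.9 to 31.8 CPM, counts per 1000000 reads of the scaled library size, over the 9 libraries; RNA levels do not check a substitution in its protein. ADE2, the adenine biosynthesis gene whose loss gives the red pigment, ranged from 77.3 to 454 CPM, with its highest level in K504E-white. Of the mating type a genes listed, the receptor gene STE2 stood at 514 to 706 CPM, STE6 at 210 to 327 CPM and BAR1 at 170 to 277 CPM. MFA1, MFA2 and AGA2, also listed, were not found by symbol in the count table. Of the mating type alpha genes, the receptor gene STE3 stood at 0.61 to 4.0 CPM and MF(ALPHA)1 at 0.186 to 1.83 CPM. MF(ALPHA)2 stood at 5.41 to 12.2 CPM and SAG1 at 29.9 to 55.9 CPM, so not all alpha genes were near 0. The 3 comparisons share libraries in pairs, so their calls are not independent of each other.

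The tag order is that of the reference strain S288C, while the deposited genes are placed on 195 contigs of W303. On 4 of 32 arms no protein-coding gene of the S288C annotation had a higher number than the outermost gene of the table. Of those outermost genes only YIR042C was itself annotated there, and YAR073W, YCL076W and YOL166C were not. Over the arms, 0 to 10 annotated protein-coding genes (median 3) had higher numbers. The genes are thus the outermost ones measured, and the telomeres themselves were not reached on most arms. Of the 84 genes, 46 were the first or last gene on their contig and 6 were alone on it. The arm of those 6 could not be checked by neighbours. For 7 genes the deposited protein name was neither the symbol nor the tag. YAR073W, tagged as arm IR, lay on contig 132 between YLR431C and YLR433C, and the deposited protein name for it is IMD3. YHR213W, tagged as arm VIIIR, lay on contig 32 next to YAL062W, and its deposited protein name is FLO9. On these contigs all 6 nearest neighbours of YAR073W carry tags of arm XIIR, and all 3 of YHR213W carry tags of arm IL. In this assembly both genes therefore lie on other arms than their tags say. They are counted here by tag.

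The level per length of the telomere-proximal genes had a lower median than that of all genes tested. In WT-red the 80 that passed the count filter had a median of 30.3 FPKM (fragments scaled by gene length and library size, as the authors deposited them; quartiles 11.8 and 78.3), against 56.5 FPKM (26.9 and 129) over the 5172 genes tested. Of those 80, 52 lay below the median of the genes tested and 35 below its lower quartile. Genes 4 to 10 from the ends had a median of 35.9 FPKM, and the 3 lowest-numbered genes of each arm, next to the centromere, 73.6 FPKM. Replicates also spread more: the median SD of log2 CPM within groups was 0.139 for the telomere-proximal genes and 0.0894 over all genes tested. In bulk RNA, fewer expressing cells and less RNA per cell cannot be told apart.

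Levels per length spanned a wide range. HXK1, the hexokinase of arm VIR, was highest at 3061 FPKM in WT-red, followed by the alcohol dehydrogenase gene ADH6 at 903 FPKM, YML131W at 721 FPKM and the 2-hydroxyglutarate transhydrogenase gene DLD3 at 695 FPKM. At the other end, 4 genes did not pass the filter. YCL076W had 0 counts in every library, where a count of 0 allows up to 3 counts, or 0.0866 to 0.11 CPM by counting error alone. YCL074W had at most 6 counts in a library, VBA5 at most 3, and YAL066W at most 13, with 0 in all K504E-white libraries.

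**Figure D1:**
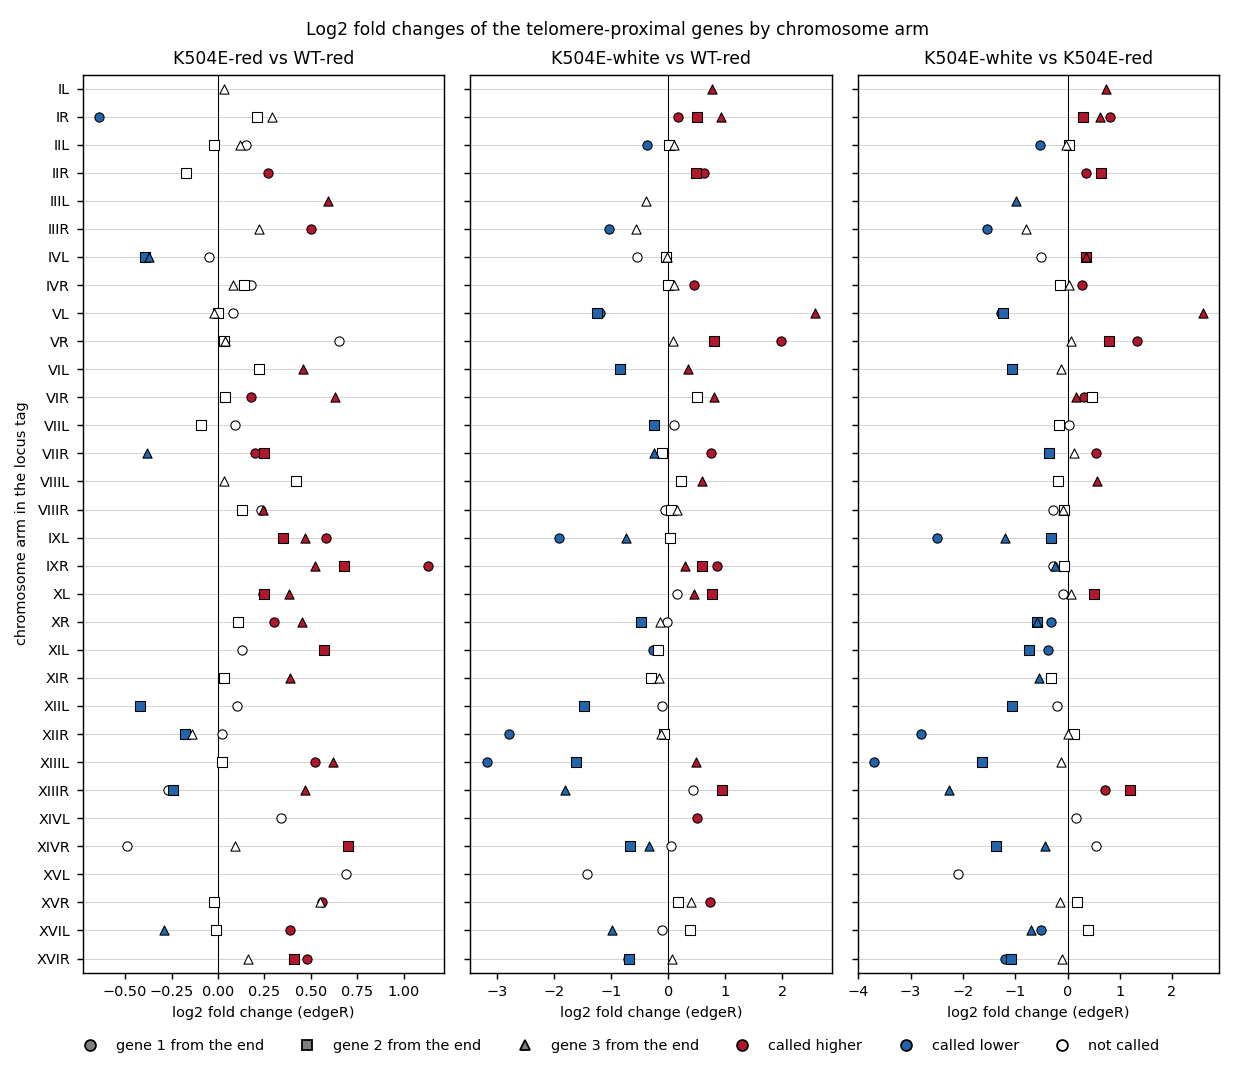
Log2 fold change of each tested telomere-proximal gene (horizontal axis, edgeR) on the chromosome arm of its tag (vertical axis) in the 3 comparisons. Marker shape gives the position from the end, red fill a call higher, blue fill a call lower and white fill no call at adjusted p 0.05; each panel has its own horizontal scale, and the differences of K504E-white reach farther than those of K504E-red against WT-red.

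K504E-red against WT-red compares mutant and wild-type colonies of the same colour. Differences of isolate or culture between the groups cannot be told apart from the mutation. ADE2 also differed between these red groups (log2 fold change 0.49, edgeR adjusted p = 2.57e-05). Of the 80 tested telomere-proximal genes, edgeR called 29 higher and 8 lower, by its quasi-likelihood test at a Benjamini-Hochberg adjusted p of 0.05, which is 46.2% against 47.1% of all genes tested. By direction these were 36.2% higher, against 25.5% of all genes, and 8 of 80 lower, against 21.6% of all genes. The median log2 fold change was 0.18, against 0.03 over all genes tested. The count of higher genes depended on single libraries: it was 16 without WT-red replicate 1 and 19 without K504E-red replicate 3. The median was 0.09 without WT-red replicate 1. Relative to each gene's mean over the 9 libraries, the median of these genes was −0.12 in WT-red replicate 1 and −0.01 in replicates 2 and 3. In K504E-red it was 0.17, 0.03 and 0.17, so replicate 2 lay nearer to the wild type than the other 2.

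The differences between red mutant and red wild type were small. Only YIR042C was called with a difference of at least 2-fold, or 1.25% of the telomere-proximal genes tested against 0.677% of all genes (0.116% higher). Libraries of the groups did not overlap for 40 of the 80, against 54.6% of all genes. YIR042C, of unknown function, is alone on contig 29 (1044 to 1754, minus strand) and is the outermost protein-coding gene of arm IXR by number in S288C too. It had 12.7, 15.0 and 30.6 CPM in WT-red, 44.3, 41.4 and 42.3 CPM in K504E-red and 37.3, 33.2 and 34.8 CPM in K504E-white. All 6 mutant libraries lay above the 3 wild-type ones, and WT-red replicate 3 stood well above the other wild-type libraries. Its log2 fold change in K504E-red was 1.13 (SE 0.292, edgeR adjusted p = 0.0145), and it was 1.62 without WT-red replicate 3, 0.88 without WT-red replicate 1 and 0.97 without WT-red replicate 2. Without K504E-red replicate 1 it was 1.10 with an edgeR adjusted p of 0.0599.

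YNR068C, second from the end of arm XIVR, had 25.4, 22.3 and 27.1 CPM in WT-red and 46.6, 28.8 and 45.8 CPM in K504E-red, a log2 fold change of 0.70 (SE 0.166, edgeR adjusted p = 0.0033). The groups did not overlap, although K504E-red replicate 2 lay close to the wild type. YPS6, a cell surface aspartic protease gene on arm IXR, had 66.6, 76.1 and 101 CPM in WT-red and 137, 119 and 133 CPM in K504E-red (log2 fold change 0.68, SE 0.126, edgeR adjusted p = 0.00124). HXK1, which phosphorylates glucose and fructose, had 4569.8, 4057 and 4804 CPM in WT-red, 7526, 6752 and 6554 CPM in K504E-red and 7745, 7715 and 7899.9 CPM in K504E-white. Every mutant library of HXK1 exceeded every wild-type one, with log2 fold changes of 0.63 in red (SE 0.0668, edgeR adjusted p = 4.54e-07) and 0.80 in white (SE 0.067, edgeR adjusted p = 6.37e-09). MSC1 on arm XIIIL also rose in both mutant groups, by log2 fold changes of 0.62 and 0.48.

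Among the 8 genes lower in K504E-red, YAR073W had the largest difference. It had 279, 301 and 271 CPM in WT-red, 183, 182 and 180 CPM in K504E-red and 308, 302 and 351 CPM in K504E-white. K504E-red lay below all other libraries, with a log2 fold change of −0.64 (SE 0.0595, edgeR adjusted p = 1.12e-07). The deposited name makes it an IMP dehydrogenase, the enzyme family of guanine nucleotide synthesis, and it is 1 of the 2 genes out of place. MHT1 (homocysteine methylation from S-methylmethionine; −0.42), BIO2 (biotin synthase; −0.38), LRG1 (a GTPase-activating protein for Rho1; −0.37), SAM3 (S-adenosylmethionine permease; −0.29) and FET4 (low-affinity metal ion transporter; −0.24) were also lower, by log2 fold changes as given, with no overlap between the groups.

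**Figure D2:**
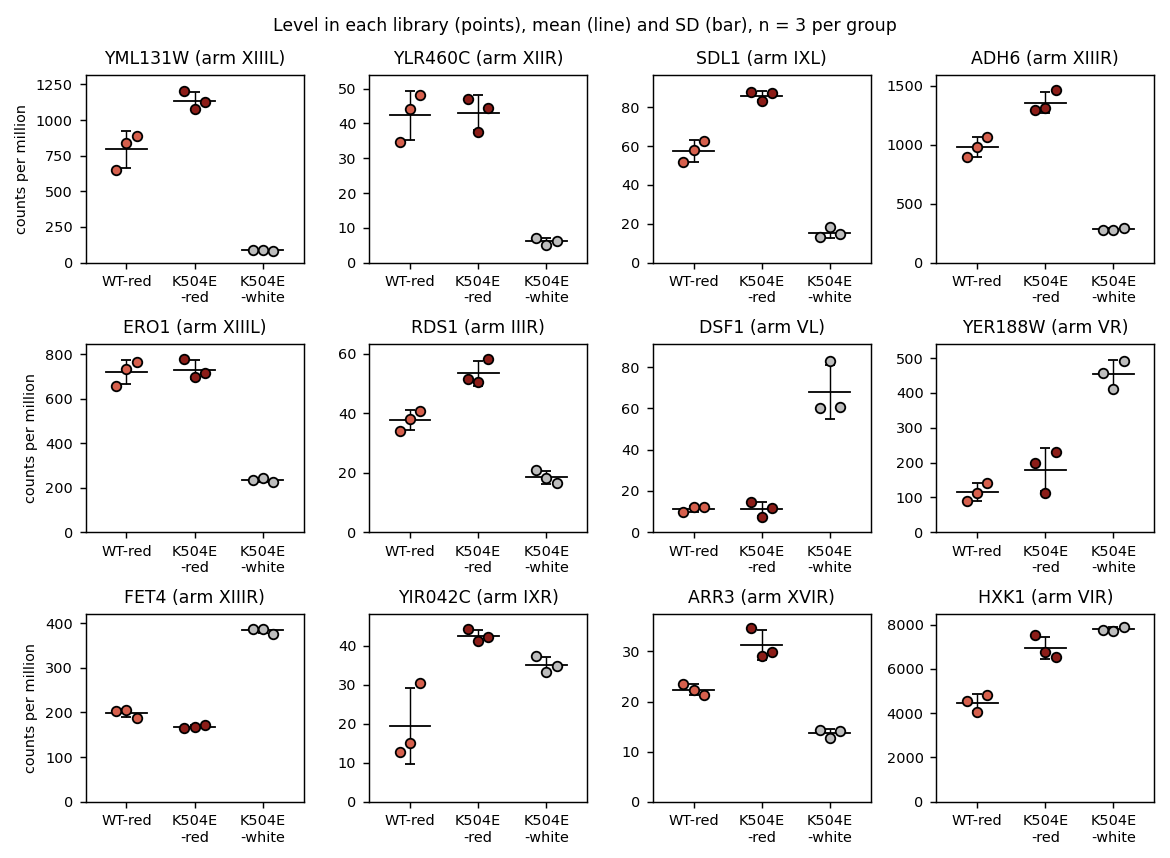
CPM of 12 telomere-proximal genes in each library (points) with the group mean (line) and SD (bar, n = 3) for WT-red, K504E-red and K504E-white, each panel with its own linear axis from 0. YML131W, YLR460C, SDL1, ADH6, ERO1 and RDS1 are lowest in K504E-white, DSF1, YER188W and FET4 are highest there, and YIR042C and HXK1 are higher in both mutant groups.

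K504E-white against WT-red compares white mutant colonies with the red wild type. Of the 80 tested telomere-proximal genes, 24 were called higher and 21 lower, or 56.2% against 46.9% of all genes (23.4% higher and 23.5% lower). Both directions occurred about equally, and the median log2 fold change was 0.02, against −0.01 over all genes. The median was −0.08 without WT-red replicate 1 and changed sign in other alternatives too, so it has no clear direction. The sizes were larger: the median absolute log2 fold change was 0.45, against 0.18 over all genes tested and 0.25 for the same genes in K504E-red against WT-red. Changes of at least 2-fold numbered 2 higher and 9 lower, or 13.8% against 3.52% of all genes (1.72% higher and 1.8% lower). The groups did not overlap for 58.8% of the genes, against 56.1% of all genes tested.

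The largest decreases were those of YML131W, YLR460C, SDL1, ADH6, ERO1 and MHT1, which lie on 5 arms. YML131W, whose product resembles NADPH-dependent medium-chain reductases, is the outermost measured gene of arm XIIIL (contig 94, 75685 to 76782, minus strand). It had 649, 841 and 890.3 CPM in WT-red, 1201, 1079 and 1129 CPM in K504E-red and 87.4, 91.0 and 84.6 CPM in K504E-white. The 3 groups did not overlap, with red mutants highest and white mutants far below both. K504E-white was 9.05-fold lower than WT-red (log2 fold change −3.18, SE 0.103, edgeR adjusted p = 7.07e-11), and K504E-red was higher than WT-red by 0.52 (SE 0.0938, edgeR adjusted p = 0.000673).

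YLR460C, a quinone oxidoreductase-like gene at the end of arm XIIR (contig 104, 40964 to 42070, minus strand), had 34.6, 44.0 and 48.2 CPM in WT-red, 47.1, 37.4 and 44.5 CPM in K504E-red and 7.18, 5.18 and 6.16 CPM in K504E-white. The red groups overlapped and the white group lay below both, 6.86-fold below WT-red (log2 fold change −2.78, SE 0.144, edgeR adjusted p = 1.87e-11). ADH6, an NADPH-dependent alcohol dehydrogenase, lies at position 3 on arm XIIIR (contig 243, 5889 to 6971, plus strand). It had 894, 983 and 1065 CPM in WT-red, 1296, 1314 and 1461 CPM in K504E-red and 278, 274 and 293 CPM in K504E-white. As with YML131W, the order was red mutant, red wild type, white mutant without overlap (white against WT-red −1.80, SE 0.0652, edgeR adjusted p = 1.44e-14).

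SDL1, named as a serine dehydratase-like gene, is the outermost measured gene of arm IXL (contig 191, 166517 to 167149, minus strand). Its 3 groups were again apart, at 51.6, 58.2 and 62.4 CPM in WT-red, 87.7, 83.3 and 87.1 CPM in K504E-red and 12.9, 18.3 and 14.5 CPM in K504E-white. It was 3.77-fold lower in K504E-white than in WT-red (log2 fold change −1.91, SE 0.105, edgeR adjusted p = 2.97e-11). ERO1, the thiol oxidase that drives disulfide formation in the endoplasmic reticulum, is the neighbour of YML131W on contig 94 (73806 to 75497, plus strand). ERO1 had 659, 736 and 764 CPM in WT-red, 779, 699 and 716 CPM in K504E-red and 233, 244 and 227 CPM in K504E-white. The red groups overlapped, and white was 3.07-fold lower than WT-red (log2 fold change −1.62, SE 0.0612, edgeR adjusted p = 2.71e-14). MHT1 on arm XIIL followed, at 72.1, 56.1 and 64.9 CPM in WT-red, 49.4, 47.7 and 47.3 CPM in K504E-red and 24.9, 20.3 and 23.9 CPM in K504E-white. MHT1 thus fell in both mutant groups, and SAM3, the S-adenosylmethionine permease gene of arm XVIL, did as well (log2 fold changes −0.29 and −0.99).

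The remaining decreases of at least 2-fold were RMD6 (−1.19), DLD3 (−1.24) and RDS1 (−1.03), as log2 fold changes against WT-red. DLD3 had 1108, 941 and 1068 CPM in WT-red, 1063, 1052 and 1009 CPM in K504E-red and 444, 441 and 438 CPM in K504E-white, so that the red groups overlapped and white lay apart. RDS1 encodes a zinc cluster transcription factor linked to drug sensitivity and is alone on its contig.

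DSF1, a mannitol dehydrogenase gene at position 3 on arm VL (contig 100, 12233 to 13741, plus strand), rose most. It had 9.75, 12.0 and 12.4 CPM in WT-red, 14.4, 7.48 and 11.8 CPM in K504E-red and 60.3, 83.1 and 60.6 CPM in K504E-white. Every white library exceeded every red one, 5.96-fold over WT-red (log2 fold change 2.58, SE 0.217, edgeR adjusted p = 3.14e-06). In S288C a near-identical gene, YNR073C, lies on another arm, so the value of DSF1 is uncertain where reads of the pair were shared. DSF1 thus rose on the arm on which its neighbours DLD3 and RMD6 fell.

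YER188W, of unknown function, is the outermost measured gene of arm VR and is alone on contig 49 (1213 to 1932, plus strand). It had 90.1, 112 and 142 CPM in WT-red, 198, 111 and 230 CPM in K504E-red and 456, 411 and 492 CPM in K504E-white. White libraries lay above all others, 3.95-fold over WT-red (log2 fold change 1.98, SE 0.298, edgeR adjusted p = 0.00167), while the red groups overlapped because K504E-red replicate 2 was as low as the wild type. YER187W beside it in the tag order was at a lower level but in the same direction (log2 fold change 0.81, SE 0.196, edgeR adjusted p = 0.00285). FET4 had 203, 206 and 188 CPM in WT-red, 165, 168 and 171 CPM in K504E-red and 387, 387 and 376 CPM in K504E-white. Its order, white above red wild type above red mutant, was the reverse of that of ADH6, its neighbour on contig 243 (log2 fold change against WT-red 0.95, SE 0.0505, edgeR adjusted p = 7.42e-12). YAT1, a carnitine acetyltransferase gene of arm IR, rose by 0.93 (SE 0.185, edgeR adjusted p = 0.000473). YIR042C was higher by 0.85 with an edgeR adjusted p of 0.045, a call that was lost when any library other than WT-red replicate 3 was left out (adjusted p = 0.0675 to 0.122).

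K504E-white against K504E-red compares the colours within the mutant. Of the 80 tested telomere-proximal genes, 19 were called higher and 28 lower, or 58.8% against 54.5% of all genes (27.2% higher and 27.3% lower). The median log2 fold change was −0.12, against −0.00 over all genes, and the median absolute log2 fold change was 0.42 against 0.22. Differences of at least 2-fold were called for 3 higher and 14 lower genes, or 21.2% against 4.56% of all genes (1.76% higher and 2.8% lower). The groups did not overlap for 67.5% of the genes, against 61.9% of all genes tested.

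YML131W was 13.0-fold lower in white than in red mutants (log2 fold change −3.70, SE 0.105, edgeR adjusted p = 1.42e-11). YLR460C differed by −2.80, SDL1 by −2.50, ADH6 by −2.27, ERO1 by −1.64 and RDS1 by −1.54 on the log2 scale. Higher in white were DSF1 (2.59), YER188W (1.33), FET4 (1.19), YAR073W (0.82), YER187W (0.79) and the glutamate dehydrogenase gene GDH3 of arm IL (0.74). Beyond those that had at least a 2-fold difference against WT-red too, AGP3 (−1.07), YIL165C (−1.20), YNR068C (−1.37), ARR3 (−1.19) and ARR2 (−1.09) reached 2-fold lower in this comparison. AGP3 is an amino acid permease gene, and ARR3 and ARR2 encode the arsenite exporter and the arsenate reductase.

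**Figure D3:**
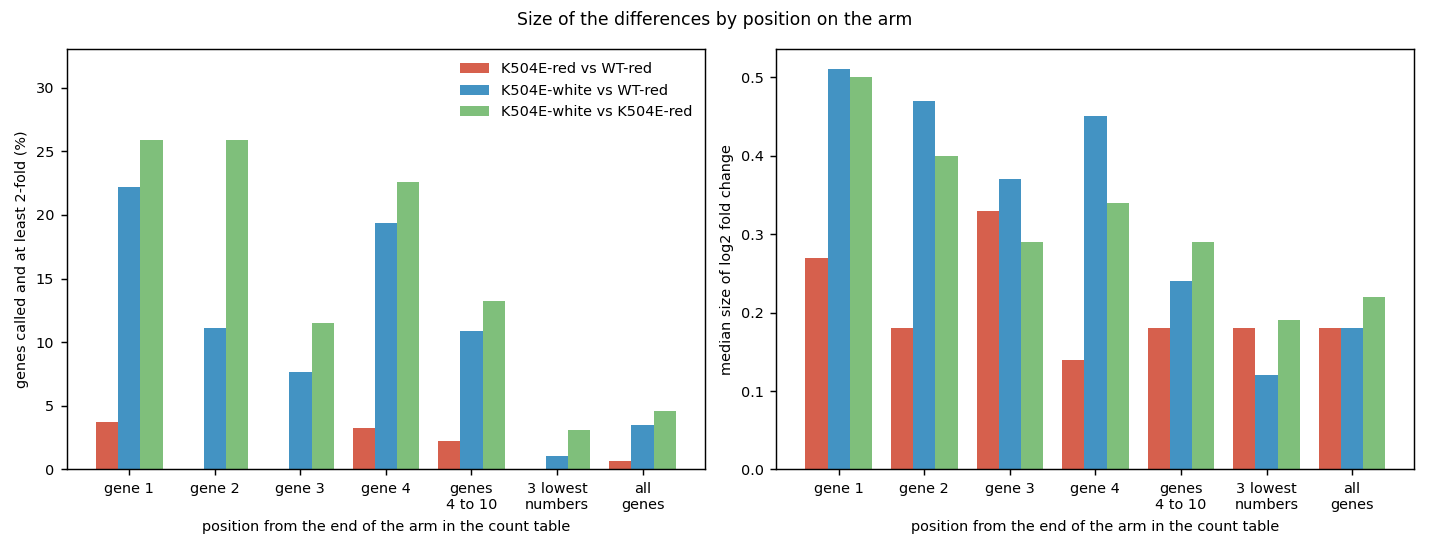
Share of tested genes called with at least 2-fold difference (left, %) and median absolute log2 fold change (right) for genes 1, 2, 3 and 4 from the arm end, genes 4 to 10, the 3 lowest-numbered genes of each arm and all genes tested. In K504E-white against WT-red the shares were 22.2%, 11.1%, 7.69% and 19.4% for genes 1 to 4, so gene 4 does not stand below gene 3. Genes 1 to 3 are shown without those left out by name, and no gene was left out at the other positions.

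Position on the arm was described by the share of tested genes called with at least 2-fold difference. In K504E-white against WT-red it was 22.2% for the outermost, 11.1% for the second and 7.69% for the third gene. These 3 positions lack the 12 genes left out by name, while none was left out farther in, so the sets are unlike. With those 12 kept, positions 1 to 3 together had 16.3%. The fourth gene, just outside the choice of 3, had 19.4% over 31 tested genes, with 4 called higher and 18 lower and a median log2 fold change of −0.32. For genes 4 to 10 together the share was 10.9%, for the 3 lowest-numbered genes of each arm 1.04%, and for all genes tested 3.52%. In K504E-white against K504E-red the shares were 25.9%, 25.9% and 11.5% for genes 1 to 3, 22.6% for the fourth, 13.2% for genes 4 to 10 and 3.12% for the lowest-numbered genes. The number of genes behind each position was 26 to 31 and no test was made over these counts.

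Arms differed in direction. In K504E-red against WT-red, called genes were only higher on 16 arms, only lower on 4, of both kinds on 3, and 9 arms had none. In K504E-white against WT-red these numbers were 11, 11, 5 and 5, and in K504E-white against K504E-red they were 9, 15, 3 and 5. Of the 20 arms with 3 tested genes, all 3 were called higher on IXL and IXR in the red mutants, and on IR and IXR in the white mutants against WT-red. Between the mutant colours all 3 were higher in white on IR, and all 3 were lower on IXL and XR. Each of these whole-arm patterns was lost in some of 17 alternative fits (other tools, filters and models, and the omission of each library). Against WT-red, IXL in red rested on SOA1 (call lost without K504E-red replicate 3) and IXR in red on YIR042C (lost without K504E-red replicate 1). In white, IR rested on YAR073W (call lost in 8 of 17) and IXR on YIR042C (lost in 9 of 17). Both patterns of IR, and its lower call in red against WT-red, include YAR073W, which lay among genes of arm XIIR on its contig. Between the colours, SWH1 on IR lost its call without K504E-white replicate 2, SOA1 on IXL in 2 of 17 and MPH3 on XR in 3 of 17. No single direction held along the ends of the genome in any comparison.

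**Figure D4:**
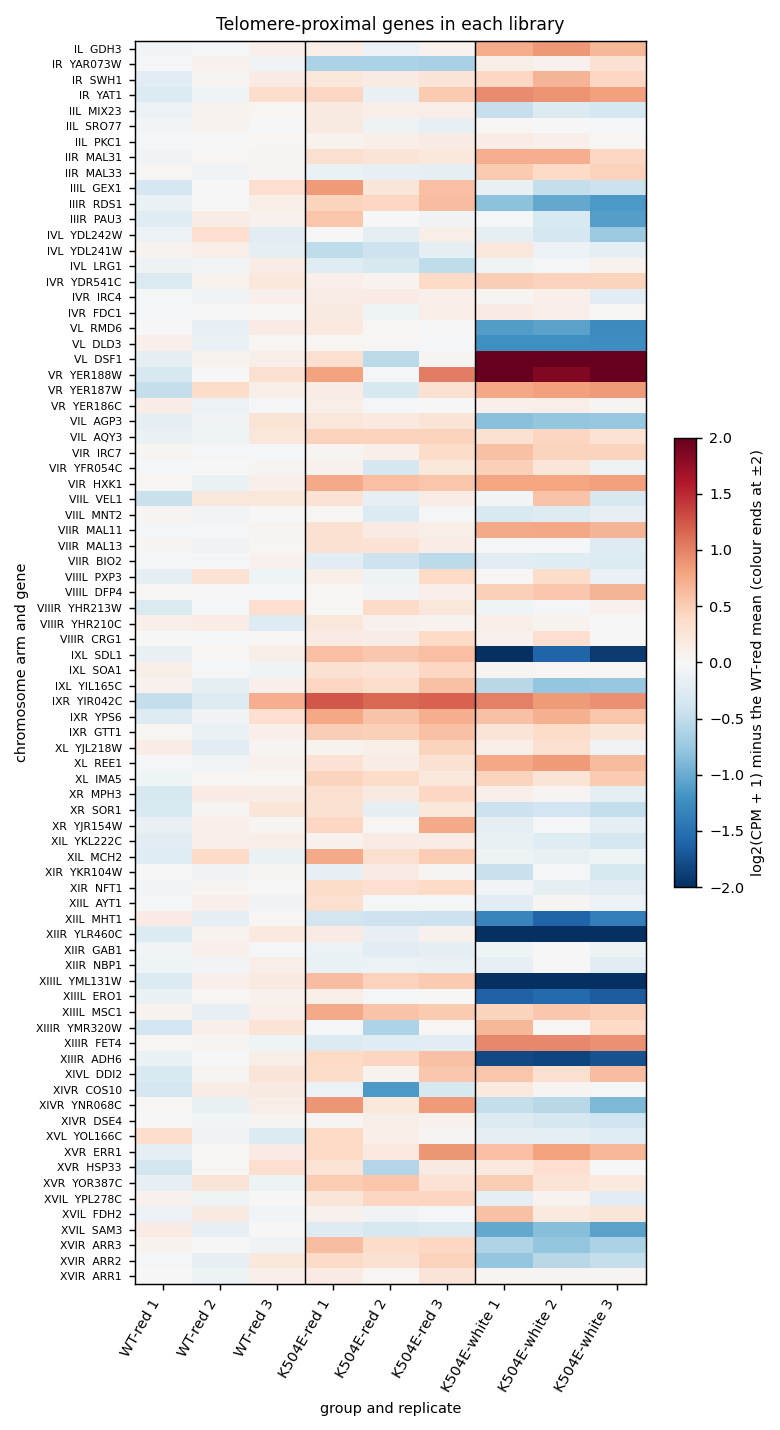
Log2(CPM + 1) of each tested telomere-proximal gene minus its WT-red mean, rows ordered by arm and columns by library, with the colours ending at 2 on either side. Blocks of genes that share an arm and a colour pattern, such as arms IXL and IXR, stand beside arms with no pattern by group.

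On the left arm of chromosome I, GDH3 had 51.3, 51.6 and 57.0 CPM in WT-red and 89.7, 97.8 and 85.2 CPM in K504E-white, and K504E-red overlapped the wild type. On arm IR the sterol-binding protein gene SWH1 had 109.7, 133 and 142 CPM in WT-red, 149.5, 143 and 152 CPM in K504E-red and 170.1, 205 and 171 CPM in K504E-white. SWH1 was called only for white, at a log2 fold change of 0.50 against WT-red. Arm IIL held PKC1, the protein kinase C of the cell wall integrity pathway, and SRO77, an exocytosis gene, neither called in any comparison. MIX23 at its end, a gene for a mitochondrial intermembrane space protein, was lower in white (−0.37 against WT-red).

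The maltose genes lie at the ends of arms IIR and VIIR. The maltose permease gene MAL31 had 100.1, 107 and 109.8 CPM in WT-red, 132, 128 and 123 CPM in K504E-red and 176, 175 and 141 CPM in K504E-white, and was called higher in both mutant groups (log2 fold changes 0.27, lost without WT-red replicate 1, and 0.63). Its neighbour MAL33, which encodes a maltose activator, was called higher in white (0.48) and not in red (−0.17, edgeR adjusted p = 0.128). On arm VIIR the alpha-glucoside permease gene MAL11 had 66.7, 66.9 and 70.4 CPM in WT-red, 83.9, 76.6 and 73.9 CPM in K504E-red and 115, 117 and 109.8 CPM in K504E-white, with no overlap among the 3 groups, although its call in red was lost in 6 of 17 alternative fits. The activator gene MAL13 beside it was called higher in red (0.25, lost in 8 of 17) and not called in white (−0.11). Both permease genes thus stood highest in K504E-white, and the activator genes differed from each other. BIO2 on the same arm was lower in both mutant groups (−0.38 and −0.25).

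At the ends of chromosome III, the glutathione exchanger gene GEX1 had 15.0, 19.1 and 24.4 CPM in WT-red, 35.4, 22.8 and 29.7 CPM in K504E-red and 17.3, 13.4 and 14.0 CPM in K504E-white. It was called higher in red (0.59) although the libraries overlapped, a call lost in 3 of 17 alternative fits, and a near-identical copy, YKR106W, exists in S288C. RDS1 on arm IIIR had 34.1, 37.9 and 40.9 CPM in WT-red, 51.6, 50.5 and 58.1 CPM in K504E-red and 20.7, 18 and 16.4 CPM in K504E-white, 3 groups without overlap. PAU3, of the seripauperin family of cell wall mannoproteins and the only PAU gene among the telomere-proximal genes, had 1.06 to 5.52 CPM and was called in no comparison.

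On arm IVL, LRG1 and YDL241W were lower in red mutants than in the wild type (−0.37 and −0.39, the latter call lost in 2 of 17 alternative fits), and neither was called in white against WT-red. YDL242W, at 2.30 to 5.92 CPM, was called in no comparison. On arm IVR the reductase-like gene YDR541C was higher in white (0.46), and IRC4 and FDC1, a ferulic acid decarboxylase gene, were not called. On arm VL the meiosis gene RMD6 had 44.8, 39.8 and 50.3 CPM in WT-red, 51.5, 46.1 and 44.5 CPM in K504E-red and 20.2, 20.9 and 17.9 CPM in K504E-white, with the red groups overlapping and white below both. YER186C, at position 3 on arm VR, lay between 48.2 and 58.2 CPM in all libraries and was not called.

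Arm VIL held AGP3 and AQY3 in opposite directions in white mutants. AGP3 had 21.8, 23.9 and 30.7 CPM in WT-red, 29.7, 29.1 and 30.4 CPM in K504E-red and 13.7, 14.3 and 14.5 CPM in K504E-white (log2 fold change −0.85 against WT-red). AQY3, an aquaglyceroporin-like gene, was higher in both mutant groups (0.46 and 0.34). On arm VIR the beta-lyase gene IRC7 was higher in both mutant groups, by 0.50 in white and by 0.18 with overlapping libraries in red, a call lost in 14 of the 17 alternative fits, and YFR054C stayed at or below 1.34 CPM.

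Few genes were called on arm VIIL and on both arms of chromosome VIII. The mannosyltransferase gene MNT2 was lower in white (−0.25), DFP4 was higher in white (0.59), and CRG1, a methyltransferase gene, was called higher in red (0.24, lost in 6 of 17 alternative fits). VEL1, PXP3, YHR213W and YHR210C were called in no comparison, with PXP3 at 0.211 to 0.831 CPM.

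On arm IXL all 3 genes rose in the red mutants. SOA1, a transporter gene for inorganic sulfur compounds, had 21.1, 18.8 and 18.2 CPM in WT-red, 24.2, 23.5 and 26.2 CPM in K504E-red and 20.1, 19.8 and 19.7 CPM in K504E-white. YIL165C, a nitrilase-like gene, had 29.3, 24.2 and 29.6 CPM in WT-red, 37.1, 35.7 and 41.9 CPM in K504E-red and 18.5, 15.7 and 15.8 CPM in K504E-white. SDL1 and YIL165C were therefore highest in red and lowest in white mutants, and SOA1 in white overlapped the wild type. On arm IXR, GTT1, a glutathione transferase gene, joined YIR042C and YPS6, with 153, 135 and 159.7 CPM in WT-red, 211, 207 and 224 CPM in K504E-red and 179, 192 and 176 CPM in K504E-white. Of the 3 genes of IXR, GTT1 alone was called between the mutant colours (−0.23).

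Arm XL held the sugar-related genes REE1 and IMA5. REE1, a regulator of enolase in galactose growth, had 178, 177 and 194 CPM in WT-red, 223, 202 and 225 CPM in K504E-red and 311, 331 and 283 CPM in K504E-white. The isomaltase gene IMA5 was called higher in both mutant groups (0.38 and 0.45; lost in 11 and 3 of the 17 alternative fits), and YJL218W at the end was not called. On arm XR the alpha-glucoside permease gene MPH3, the sorbitol dehydrogenase gene SOR1 and YJR154W were all lower in white than in red mutants, by −0.32, −0.58 and −0.59 on the log2 scale. MPH3 and SOR1 each have a near-identical copy in S288C.

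On chromosome XI, MCH2, of the monocarboxylate permease family, was called higher in red (0.57, lost in 5 of 17 alternative fits), and the ABC transporter gene NFT1 was too (0.39, lost in 2). Both were lower in white than in red mutants (−0.74 and −0.55). YKL222C was lower in white, with overlapping libraries (−0.26 against WT-red, a call lost in 3 of 17 alternative fits), and YKR104W was not called. On chromosome XII, AYT1, an acetyltransferase gene at 9.24 to 13.9 CPM, and NBP1, needed for spindle pole body duplication, were not called. GAB1, a subunit gene of GPI transamidase, was called lower in red (−0.18, lost in 4 of 17 alternative fits).

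Besides YML131W, ERO1, FET4 and ADH6, the chromosome XIII arms held YMR320W and MSC1. YMR320W, outside FET4 and ADH6, had 2.46, 3.84 and 4.46 CPM in WT-red, 3.38, 1.94 and 3.60 CPM in K504E-red and 6.16, 3.61 and 4.95 CPM in K504E-white. It was called only between the mutant colours (0.71, edgeR adjusted p = 0.044), a call lost with limma-voom and in 4 of 9 omissions of a library. MSC1, inside YML131W and ERO1, had 624, 528 and 637 CPM in WT-red, 1005, 879 and 858 CPM in K504E-red and 808, 869 and 827 CPM in K504E-white, so the third gene of that arm did not share the low white level of the outer 2.

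On arm XIVL the cyanamide hydratase gene DDI2 was called higher in white (0.51, lost in 2 of 17 alternative fits), and has a near-identical copy in S288C. COS10, the only gene of the COS family among the telomere-proximal genes, lies first on its contig (330 to 1454, minus strand) and had 73.4, 103 and 105 CPM in WT-red, 84.8, 41.1 and 73.6 CPM in K504E-red and 106, 95.7 and 89.8 CPM in K504E-white. K504E-red replicate 2 was the lowest library, the red groups overlapped, and no comparison was called. DSE4, a daughter-cell glucanase gene at position 3 on arm XIVR, was lower in white (−0.34 against WT-red). YOL166C, the only telomere-proximal gene of arm XVL, had 2 to 21 counts in a library and was not called, with a log2 fold change of −2.10 between the mutant colours and an edgeR adjusted p of 0.0562.

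On arm XVR the enolase-related gene ERR1 was called higher in both mutant groups (0.56, lost in 2 of 17 alternative fits, and 0.73), and HSP33 and YOR387C were not called; ERR1 and HSP33 each have near-identical copies in S288C. On arm XVIL, YPL278C was called higher in red (0.39, lost in 3 of 17 alternative fits), FDH2, a formate dehydrogenase gene, was not called, and SAM3 had 399.8, 319 and 358 CPM in WT-red, 299.9, 285 and 294 CPM in K504E-red and 175, 198 and 170.1 CPM in K504E-white.

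Arm XVIR ends in the arsenic resistance cluster, whose 3 genes lie together on contig 74. ARR3 (82957 to 84171, plus strand) had 23.4, 22.3 and 21.3 CPM in WT-red, 34.7, 29.1 and 29.9 CPM in K504E-red and 14.3, 12.7 and 14.1 CPM in K504E-white. ARR2 (82314 to 82706, minus strand) had 10.5, 9.48 and 12.6 CPM, 14.5, 13.6 and 15.2 CPM, and 5.87, 7.04 and 7.46 CPM in the same order. Both were highest in red and lowest in white mutants with no overlap, but the call of ARR2 in red against WT-red was lost in 10 of 17 alternative fits. ARR1 (81183 to 82067, minus strand), whose product activates the other 2 genes, had at most 64.7 CPM, overlapped between all groups and was not called in any comparison.

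Gene families were represented thinly by symbol: 4 MAL, 1 COS, 1 PAU, 1 VBA and 1 GEX gene, and no gene with a FLO, IMD, YRF or VTH symbol. By deposited protein name, however, YAR073W is IMD3 and YHR213W is FLO9. The 26 telomere-proximal genes without a symbol included 23 tested ones. In K504E-white against WT-red 43.5% of these were called, and 61.4% of the 57 tested genes with a symbol were, against 46.9% of all genes tested; those without a symbol also spread more within groups (median SD of log2 CPM 0.22 against 0.117). Over all 3 comparisons 58 of the 80 tested genes were called in at least 1, and 22 in none; the share called was 72.5%, against 74.0% of all genes tested.

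Genes for the silencing machinery were measured beside them as a list of 24, of which 22 were in the table. Of these, K504E-red against WT-red had 2 higher and 5 lower, with 5 higher and 2 lower in K504E-white against WT-red, and 6 higher and 2 lower between the mutant colours, and none by 2-fold. The shares called were 31.8%, 31.8% and 36.4%, each below the 47.1%, 46.9% and 54.5% of all genes tested. SIR3, a structural silencing protein gene, was higher in white than in WT-red by 0.34 on the log2 scale (SE 0.0691, edgeR adjusted p = 0.000446) and differed by 0.03 in red (edgeR adjusted p = 0.711). RAP1, which binds telomeric repeats, was lower in red (−0.22) and higher in white (0.17). RIF1, a Rap1 partner, was lower in red (−0.29). SIR2, the histone deacetylase, ranged from 22.4 to 56.8 CPM and was not called against WT-red in either mutant group.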

How the data were processed

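RNA of 9 libraries was sequenced after poly(A) selection, per the labels' protocols. The authors deposited raw counts per gene (whole numbers, not normalised) and FPKM values per library with their group means, on contigs of a W303 assembly per the file headers. Aligner, counter, software versions and strand setting are not given in the sources used here, so reads of overlapping or near-identical genes may have been split or lost. Column names W, K and KW were read as WT-red, K504E-red and K504E-white, with the number as replicate.

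Genes were filtered with filterByExpr (5172 kept, 33 removed) and tested together with edgeR 4.0.16 (R 4.3.3): TMM scaling, quasi-likelihood fit with robust estimation of the spread, group as the only term, all 9 libraries, two-sided, Benjamini-Hochberg adjustment over all genes tested, calls at adjusted p under 0.05. Robust estimation was chosen after fits with and without it had been seen; it is the more conservative for genes with 1 deviating library. Standard errors were computed from the F statistic. CPM is the count per 1000000 reads of the TMM-scaled library size. With totals of 27388755 to 34634199, a count of 0 allows up to 3 counts; such limits cover counting error only.

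Names and tag order came from a RefSeq table of S288C (assembly R64; 80 of the 84 genes matched), and near-identical copies from BLAST 2.17.0 (at least 95% identity over at least 100 bp of the S288C sequence). The genes and lists were chosen with earlier results of these data known. Named genes were the 6 with the largest log2 fold change in each direction and comparison among called genes with no overlap between groups and at least 10 CPM in the higher group. All others are named in the account of their arm, and any further gene was chosen after its values were seen. Alternatives were DESeq2 1.42.0 (size factors and Wald test), limma-voom (limma 3.58.1), count filters (a total of 1 or more; 10 or more in each library), a fit per pair of groups, a replicate block, omission of each library, and no omission by name. Added after seeing the data were fits without robust estimation, without the 2 genes out of place and without genes with copies. The edgeR script was tested on simulated data. Plots were drawn with matplotlib 3.10.9.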

Additional observations from a re-analysis of the deposited data

Results flagged for a closer look

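In 10 telomere-proximal genes the red and the white mutants differed from WT-red in opposite directions, both called by edgeR, and the difference between the mutants was tested in the same fit (K504E-white against K504E-red). For 2 of them a call was not stable: YAR073W in white against WT-red was lost in 8 of 17 alternative fits, and ARR2 in red against WT-red in 10 of 17. As the genes were selected for opposite calls, that difference follows in large part from the selection. Calls were common among all genes tested, at 47.1% for red mutants and 46.9% for white mutants, each compared with WT-red. The number of opposite calls among all genes tested was not determined. Whether such calls are more frequent near chromosome ends than elsewhere was therefore not tested. In 8 of the 10, red mutants were higher and white mutants lower than the wild type. The log2 differences of white against red were −3.70 for YML131W (0.52 and −3.18 against WT-red), −2.50 for SDL1 (0.58 and −1.91), −2.27 for ADH6 (0.47 and −1.80) and −1.54 for RDS1 (0.50 and −1.03). They were −1.37 for YNR068C, −1.20 for YIL165C, −1.19 for ARR3 and −1.09 for ARR2. The reverse order was found for FET4 (1.19, with −0.24 in red and 0.95 in white against WT-red) and for YAR073W (0.82, with −0.64 and 0.17). YAR073W is counted here by tag, but lay among genes of arm XIIR on its contig. The edgeR adjusted p of these 10 differences ranged from 4.39e-16 (ADH6) to 9.1e-06 (YNR068C). ADH6 and FET4 are neighbours on contig 243 with opposite orders of the groups.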

How the results depend on the processing

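No named gene changed direction under the alternatives run, but the median of K504E-white against WT-red (0.02) was below 0 in 8 of them, between −0.08 and −0.01. Leaving out 1 library at a time gave 16 to 32 telomere-proximal genes called higher, and 6 to 8 lower, for K504E-red against WT-red, with medians of 0.09 to 0.23 and 0 to 1 genes at least 2-fold different. For K504E-white against WT-red it gave 20 to 23 higher and 19 to 23 lower, medians of −0.08 to 0.05 and 10 to 13 genes at least 2-fold different; for K504E-white against K504E-red it gave 15 to 19, 26 to 29, −0.18 to −0.06 and 16 to 18. With the genes left out by name kept, 2 genes were at least 2-fold different in K504E-red against WT-red in place of 1, by construction from more genes. The call of YIR042C was lost without K504E-red replicate 1 in red, and in white in the fit of only the groups compared (adjusted p = 0.117) and in 8 of the 9 omissions; the cause was not tested. The other 34 of the 36 calls named by rule were kept in every alternative run. Over all telomere-proximal genes, 18 of 37, 6 of 45 and 8 of 47 calls were lost in at least 1 of 17 alternative fits in the 3 comparisons; among these HXK1 lost its call between the mutant colours in 5 omissions and LRG1 in 1. Without robust estimation K504E-red against WT-red had 29 higher and 9 lower, and with at least 1 count 23 and 8.

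No shared deviation by replicate number was seen. Deviations of same-numbered libraries from their group means correlated at −0.11 to 0.0274 across genes, and those of differently numbered libraries at −0.113 to 0.135. Such correlations cannot tell whether same-numbered samples were handled together, which the titles do not say. With the replicate block, 29 were higher and 7 lower, 24 and 21, and 19 and 29 in the 3 comparisons. YCL076W, YCL074W, VBA5 and YAL066W did not pass the filter and were not tested in the main fit. YOL166C, at 2 to 21 counts in a library, was tested and not called. The cause of these low counts was not tested.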

Other observations

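The 12 genes left out by name were tested in the same fit. In K504E-white against WT-red, 3 of them were called higher and 6 lower, and 33.3% were called with at least 2-fold difference, against 13.8% of the tested telomere-proximal genes that remained. With all 92 tested genes at positions 1 to 3 the share was 16.3%.

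An S288C sequence was found for 80 of the 84 genes. YAL066W, YAR073W, YCL076W and YOL166C had none and were not searched for copies. Of the 80 searched, 12 have a near-identical copy in S288C (GEX1, PAU3, DSF1, YHR213W, MPH3, SOR1, VBA5, DDI2, ERR1, HSP33, YPL278C and FDH2). For 1 of these 12, VBA5, the copy was in the count table. Without the 11 of these that were tested, K504E-red against WT-red had 25 higher and 8 lower genes, and K504E-white against WT-red had 21 and 20. The values of these genes are uncertain where reads were shared.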
